A study of Mus musculus with 15 samples.

Results

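Ltf, Lcn2, C3 and Muc1 are genes that encode proteins released into, or lining, the cavity of the uterus, and that are known to be induced by estrogen in the uterine epithelium. The 4 genes were chosen by name, in every deposited table that lists them, out of 28269 genes listed in any table. All 4 were listed for both groups of Notch1-overexpressing animals, and 2 of them, Ltf and C3, for the wild type. Lcn2 and Muc1 were not analysed in the wild type.

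RNA was sequenced from mouse uterine epithelium on day 4, in 15 libraries that form 5 groups of 3. Luminal epithelium (LE) is the sheet that faces the uterine cavity, and glandular epithelium (GE) forms the glands beneath it. The groups were wild-type LE, wild-type GE, E-OEX LE, E-OEX GE and U-OEx LE. E-OEX and U-OEx are the names that the sample titles give to animals whose genotype label reads overexpression of Notch1, a receptor that signals on contact between neighbouring cells. The labels do not say what either name stands for, which promoter or Cre line drives the transgene, what day 4 is counted from, or whether each library came from 1 animal. Cre lines built into the Ltf locus are in common use in uterine epithelium, and whether one was used here is not stated. The p-values below therefore measure the spread between libraries, which may be technical. In bulk RNA, fewer cells of a type and less RNA per cell cannot be told apart.

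Estrogen acts on the uterine epithelium through the receptor encoded by Esr1, and it drives the epithelium to divide and to secrete. Before implantation progesterone opposes that action, and secretory products of the estrogen phase are lowered as the luminal surface becomes receptive to the embryo. Lactotransferrin, from Ltf, binds iron and is a classical marker of estrogen action in the mouse uterus. Lipocalin 2, from Lcn2, binds the siderophores with which bacteria collect iron, C3 is the central protein of the complement cascade, and Muc1 is a membrane mucin that covers the apical surface of epithelial cells. Ltf and Lcn2 are also products of neutrophil granules, so neutrophil markers are given beside their values.

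The genes lie on different chromosomes, per GENCODE M21 on GRCm38. Ltf (ENSMUSG00000032496) spans chr9:111019271-111042767 on the plus strand and Lcn2 (ENSMUSG00000026822) spans chr2:32384633-32388252 on the minus strand. C3 (ENSMUSG00000024164) spans chr17:57203970-57228136 on the minus strand and Muc1 (ENSMUSG00000042784) spans chr3:89229057-89233381 on the plus strand. Their promoter windows are shown because the estrogen receptor is known to bind 2 GGTCA arms that face each other across 3 bases, and also single GGTCA arms. Each window runs from 250 bases before to 50 bases after the transcription start, 5′ to 3′ on the gene's strand, from RefSeq on GRCm38.p6. The windows are chr9:111019042-111019341 (plus) for Ltf, chr2:32387690-32387989 (minus) for Lcn2, chr17:57228087-57228386 (minus) for C3 and chr3:89228806-89229105 (plus) for Muc1. For Lcn2 the RefSeq start lies inside the GENCODE span, whose own 5′ end at 32388252 is outside the window and was not searched. Capitals mark single arms, GGTCA on the strand shown or TGACC where the arm is on the other strand.
Ltf: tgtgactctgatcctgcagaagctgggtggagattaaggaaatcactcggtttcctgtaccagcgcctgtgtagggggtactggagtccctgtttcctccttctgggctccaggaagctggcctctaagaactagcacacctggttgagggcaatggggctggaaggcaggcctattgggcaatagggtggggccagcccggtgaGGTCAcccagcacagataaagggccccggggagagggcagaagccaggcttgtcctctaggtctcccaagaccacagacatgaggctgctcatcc
Lcn2: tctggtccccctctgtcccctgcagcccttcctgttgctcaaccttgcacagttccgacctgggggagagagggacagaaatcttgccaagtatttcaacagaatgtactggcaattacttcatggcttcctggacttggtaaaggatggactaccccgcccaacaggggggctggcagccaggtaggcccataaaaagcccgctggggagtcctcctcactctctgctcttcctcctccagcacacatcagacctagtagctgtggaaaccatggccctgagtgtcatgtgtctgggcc
C3: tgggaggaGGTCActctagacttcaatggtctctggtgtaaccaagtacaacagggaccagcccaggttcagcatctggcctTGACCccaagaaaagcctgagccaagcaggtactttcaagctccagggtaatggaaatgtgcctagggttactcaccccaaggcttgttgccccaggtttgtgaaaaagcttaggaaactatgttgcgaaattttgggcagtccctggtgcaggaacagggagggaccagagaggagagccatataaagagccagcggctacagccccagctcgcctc
Muc1: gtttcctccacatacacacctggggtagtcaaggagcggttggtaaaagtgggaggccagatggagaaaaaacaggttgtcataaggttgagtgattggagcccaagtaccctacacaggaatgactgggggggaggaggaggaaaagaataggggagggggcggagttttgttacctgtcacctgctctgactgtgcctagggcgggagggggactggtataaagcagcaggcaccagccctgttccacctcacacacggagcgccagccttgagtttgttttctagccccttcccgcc

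The Ltf window held 1 GGTCA arm, at -45 from the start, and the C3 window held 2, at -242 and, on the other strand, at -168. No arm was found in the Lcn2 and Muc1 windows. Of 32851 mouse promoter windows of this length, 40.5% held such an arm on either strand, so its presence in 2 of 4 windows is no more than a description. The full site of 2 facing arms, which contains the single arm and is held by 0.1% of all windows, was found in none of the 4. Neither was TGGGAA, the core bound by RBPJ, the DNA-binding partner of active Notch (25.6% of all windows), nor GGG followed by any 2 bases and TTTCC, a form of the NF-kappaB site (1.6%). The letters TATAAA, the core of many promoters and held by 13.6% of windows, stood at -31 in Muc1 and at 15 bases after the annotated start in C3. All motifs were searched on both strands. No match says only that these letters are not in these windows.

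Values are scaled read counts, that is, reads divided by 1 factor for each library, and are given as mean ± SD over 3 libraries. Listed genes took 3818041 to 4797424 reads in a wild-type library, 1980800 to 3494859 in an E-OEX library and 13541644 to 14981505 in a U-OEx library. The wild-type and E-OEX tables list only genes that differ at least 2-fold between LE and GE, so those sums are not sequencing depths. To compare genotypes, the reads of the genes shared by both tables were put on 1 scale by the TMM method. Tests are limma's, adjusted over all genes of the comparison. Relative to the deposited scale, the rescaling changed the log2 ratio by -0.17 for E-OEX against wild-type LE, by -0.47 for GE, by -0.02 for U-OEx against wild-type LE and by -0.13 for U-OEx against E-OEX LE.

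The secretory genes were among the most abundant transcripts of U-OEx LE. By mean scaled count over 27946 genes, Ltf ranked 2, Lcn2 ranked 3, C3 ranked 8 and Muc1 ranked 122. Values were also divided by the kilobases of exon, taken as the union over all annotated transcripts of a gene. That union was 3450 bases for Ltf, 2623 for Lcn2, 5143 for C3 and 2346 for Muc1. It can exceed the length of the RNA present, so levels of different genes compare only roughly. Per kilobase of exon, the levels in U-OEx LE were 30594 ± 10772 for Ltf, 29676 ± 9936 for Lcn2, 6712 ± 1396 for C3 and 3915 ± 763 for Muc1. On that scale they ranked 4, 5, 46 and 105 in the same order, of 27131 genes with a known exon length. By this measure the U-OEx LE levels of Ltf and Lcn2 overlapped, C3 lay below both, and Muc1 was lowest. In E-OEX LE the per-kilobase levels were 7081 ± 3532 for Ltf, 5361 ± 7811 for Lcn2, 2316 ± 2043 for C3 and 2849 ± 1012 for Muc1, and the ranges of all 4 over the libraries overlapped.

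**Figure D1:**
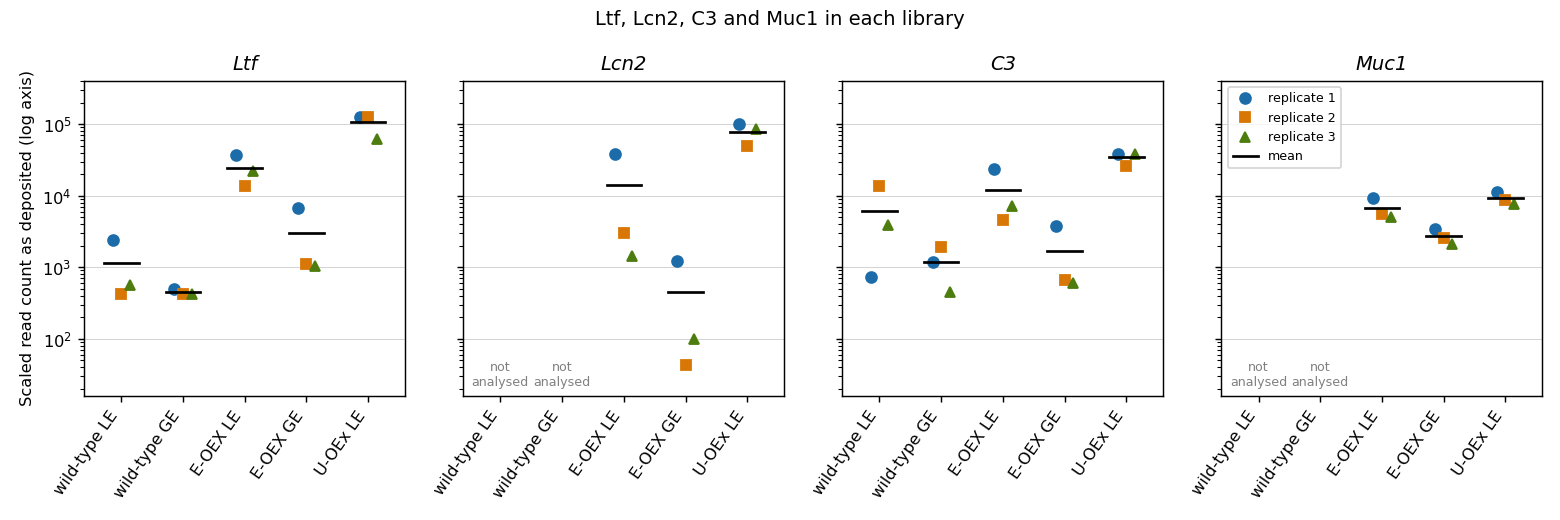
Scaled read count as deposited, on a log axis, of Ltf, Lcn2, C3 and Muc1 in each library of the 5 groups, with symbols for replicates 1 to 3 and a line at the mean. Ltf and Lcn2 were highest in U-OEx LE, and the E-OEX libraries of replicate 1 lay above replicates 2 and 3 for all 4 genes.

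Ltf, the iron-binding protein, was lower in wild-type epithelium than in the luminal epithelium of both Notch1-overexpressing groups. By mean scaled count Ltf still ranked 796 in wild-type LE and 1359 in wild-type GE, of 6414 listed genes. The wild-type LE libraries held 2419, 417 and 571 (1136 ± 1114), and the wild-type GE libraries held 496, 416 and 428 (447 ± 43.2). The E-OEX LE libraries held 37561, 13488 and 22235 (24428 ± 12185.5), and the U-OEx LE libraries held 127619, 126388 and 62645 (105551 ± 37163). Every E-OEX LE library exceeded every wild-type LE library, as groups failed to overlap for 29.9% of genes tested there, and every U-OEx LE library exceeded every E-OEX LE library (38.2% of genes) and every wild-type one (63.8%). In wild-type LE, replicate 1 stood above the other two, of which replicate 2 lay within the GE range and replicate 3 above it. On the log2 scale Ltf was 4.58 higher in E-OEX than in wild-type LE (SE 0.69, 23.9-fold, 95% interval 3.04 to 6.11, limma adjusted p = 0.00477). Leaving out wild-type LE replicate 2 or 1 gave 4.01 or 5.40, both past the threshold. Without the filter on low values, the adjusted p was 0.0518. Of the 2600 genes tested there, 10.7% passed the threshold of 0.05 on the adjusted p, 5.12% as higher, and Ltf was the 1 of 2 listed members that did.

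In U-OEx against wild-type LE, Ltf was 6.89 higher (SE 0.66, 119-fold, 95% interval 5.36 to 8.42, limma adjusted p = 8.51e-05). The value was 6.35 without wild-type LE replicate 2 and 7.72 without wild-type LE replicate 1, both past the threshold. Both comparisons use the same 3 wild-type LE libraries. In U-OEx, 56.9% of 5949 genes tested passed the threshold and 29.1% passed as higher and Ltf and C3, the 2 members listed there, were both among the latter. The direct comparison of U-OEx with E-OEX LE gave a difference of 2.03 for Ltf (SE 0.43, 4.08-fold, 95% interval 1.05 to 3.01, limma adjusted p = 0.0194). There, 15.0% of 4275 genes passed, 6.97% as higher, and 2 of the 4 members, Ltf and Lcn2, were among them. The Ltf call was lost on leaving out E-OEX LE replicate 2 (adjusted p = 0.0547), E-OEX LE replicate 3 (0.0506), U-OEx LE replicate 1 (0.105) or U-OEx LE replicate 2 (0.071), and without the filter on low values (0.0671).

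In the glands, the E-OEX libraries held 6814, 1094 and 1045.5 of Ltf (2985 ± 3316). Each of these lay above the 3 wild-type GE libraries, by a wide margin in replicate 1 only. The rescaled difference was 1.69 on the log2 scale (SE 0.65, 3.22-fold, 95% interval 0.22 to 3.15, limma adjusted p = 0.0946) and did not pass the test. Of 2851 genes tested in GE, 23.5% passed and 40.5% had groups that did not overlap. Without E-OEX GE replicate 1 the difference was 0.73 with an adjusted p of 0.0385. The difference was 2.36 with edgeR (adjusted p = 0.0387), 2.40 with DESeq2 (0.00129) and 2.15 on the deposited scale (0.029), each past the threshold.

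Ordered over all 15 libraries on 1 joint scale, the means of Ltf stood in the order U-OEx LE (139355), E-OEX LE (30212), E-OEX GE (1968), wild-type LE (1416) and wild-type GE (370). The ranges of E-OEX GE (609 to 4617) and wild-type LE (642 to 2813) overlapped, and no other neighbours in that order did on this scale. On the deposited scale, wild-type LE and wild-type GE overlapped too.

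Lcn2, the siderophore-binding lipocalin, had the widest relative spread of the 4 genes in both epithelia of E-OEX. The E-OEX LE libraries held 37702, 3048 and 1439 (14063 ± 20488), and the E-OEX GE libraries held 1223, 42.5 and 98.4 (455 ± 666). In both epithelia of E-OEX, replicate 1 was more than 10 times each other library. The U-OEx LE libraries held 99580, 48947 and 84991 (77839 ± 26063), and each exceeded every E-OEX library. U-OEx and E-OEX LE failed to overlap for 38.2% of genes tested. Lcn2 was 3.63 higher on the log2 scale in U-OEx than in E-OEX LE (SE 0.97, 12.4-fold, 95% interval 1.43 to 5.83, limma adjusted p = 0.0392). That call was lost on leaving out any 1 of 5 libraries, all but E-OEX LE replicate 1 (adjusted p from 0.0773 to 0.147), and with edgeR (difference 2.47, adjusted p = 0.134). No wild-type value of Lcn2 was analysed here, so its change from wild type is not given.

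C3, the complement protein, was high in U-OEx LE and overlapped between E-OEX and wild type. The wild-type LE libraries held 737, 13647 and 3870 (6085 ± 6734), the widest relative spread of any wild-type group for the listed members. The E-OEX LE libraries held 23958, 4618 and 7164 (11913 ± 10508), and the U-OEx LE libraries held 38572, 26229 and 38756 (34519 ± 7180). Wild-type LE replicate 2 lay above 2 of the 3 E-OEX LE libraries, and all U-OEx LE libraries lay above all wild-type and E-OEX ones. Groups failed to overlap for 63.8% of genes tested in U-OEx against wild-type LE and for 38.2% in U-OEx against E-OEX LE. C3 was 3.30 higher on the log2 scale in U-OEx than in wild-type LE (SE 0.84, 9.87-fold, 95% interval 1.36 to 5.25, limma adjusted p = 0.0107). Leaving out wild-type LE replicate 1 moved that value to 2.27 and leaving out replicate 2 moved it to 4.27, both past the threshold. Between E-OEX and wild-type LE the difference was 1.28 (SE 0.92, 95% interval -0.77 to 3.33, limma adjusted p = 0.412) and did not pass. It ran from 0.23 without wild-type LE replicate 1 to 2.21 without wild-type LE replicate 2. Between U-OEx and E-OEX LE it was 1.74 (SE 0.51, 95% interval 0.59 to 2.89, limma adjusted p = 0.0504), just outside the threshold. Without E-OEX LE replicate 1 it was 2.35, with an adjusted p of 0.00587.

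In the glands C3 held 1172, 1914 and 452 in wild type (1179 ± 731) and 3798, 668 and 608 in E-OEX (1691 ± 1824). The GE groups overlapped, and the rescaled difference was -0.26 (SE 0.74, 95% interval -1.91 to 1.38, limma adjusted p = 0.845). Its sign turned to 0.16 with edgeR, 0.22 with DESeq2 and 0.20 on the deposited scale, so no direction is given for C3 in GE. Summed stromal markers, over 6 listed genes, were 363, 7656 and 2436 in the wild-type LE libraries and 49992, 99388 and 33746 in the wild-type GE libraries. C3 followed the same order of libraries within each of these groups. It also did in U-OEx LE, where the stromal sums over 8 genes were 1014, 682 and 2672. It did not in E-OEX LE (2728, 1213 and 498) or in E-OEX GE (79280, 94357 and 87150). The part of stromal RNA in the C3 values was not tested. On the joint scale the order of C3 means was U-OEx LE (45152), E-OEX LE (15115), wild-type LE (9082), E-OEX GE (1113) and wild-type GE (948). U-OEx LE did not overlap the next group, and each later pair of neighbours overlapped.

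Muc1, the membrane mucin, had the smallest relative spread of the 4 genes in each of the 3 groups where it was listed. The E-OEX LE libraries held 9411, 5562 and 5078 (6684 ± 2374), the E-OEX GE libraries held 3469, 2526 and 2080 (2692 ± 709) and the U-OEx LE libraries held 11159, 8720 and 7672 (9184 ± 1789). The LE groups overlapped, since E-OEX LE replicate 1 lay above U-OEx LE replicates 2 and 3. The U-OEx minus E-OEX difference in LE was 0.36 on the log2 scale (SE 0.32, 95% interval -0.37 to 1.09, limma adjusted p = 0.469), and an interval of that width leaves room for a higher or a lower level in U-OEx.

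**Figure D2:**
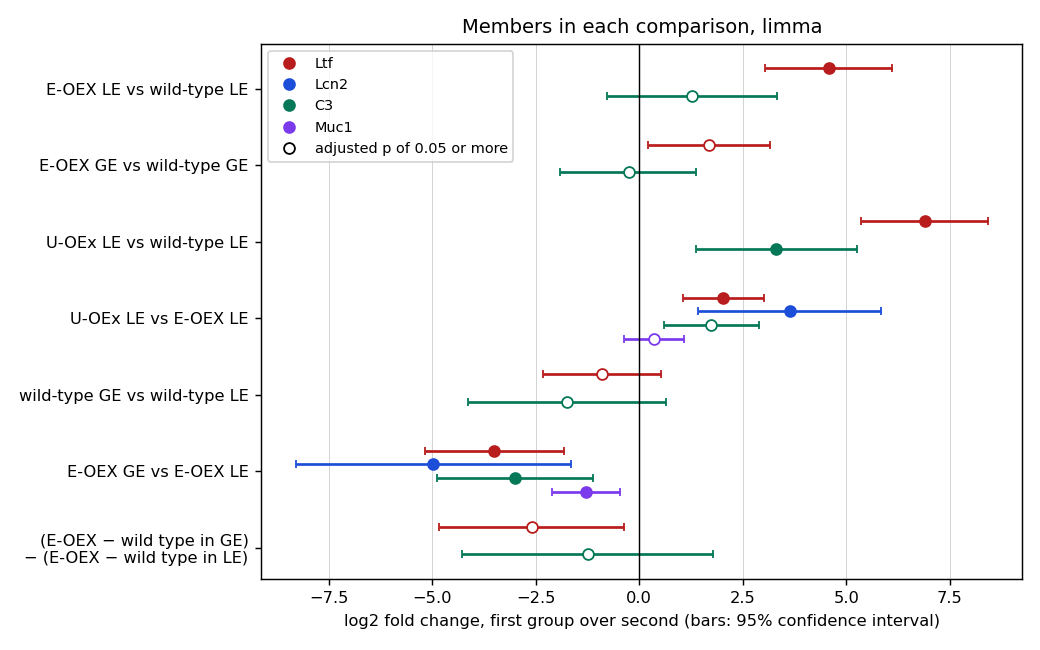
Log2 fold change of each member in each comparison, first group over second, with 95% confidence intervals from limma as bars and open symbols where the adjusted p was 0.05 or more. The intervals of Ltf and C3 in U-OEx against wild-type LE lie above 0, and those of all 4 genes in E-OEX GE against E-OEX LE lie below 0.

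Within E-OEX all 4 genes were lower in the glands than in the luminal sheet, and the LE and GE libraries of none of them overlapped. The GE minus LE difference was -3.50 for Ltf (SE 0.73, adjusted p = 0.00346), -4.98 for Lcn2 (SE 1.45, adjusted p = 0.0132), -3.00 for C3 (SE 0.82, adjusted p = 0.0104) and -1.29 for Muc1 (SE 0.36, adjusted p = 0.0107), by limma. The E-OEX list had been selected for this difference, and 91.6% of its 4903 genes passed the test, 30.1% as lower, with 89.9% not overlapping, so nothing is read from these 4 calls. Of the calls in that list 67.2% were higher in GE, or 46.2% with quantile normalization. The calls of Lcn2 and C3 were lost without E-OEX GE replicate 2 (adjusted p = 0.062 and 0.0512) or without E-OEX GE replicate 3 (0.0627 and 0.0559), and that of Muc1 without E-OEX GE replicate 3 (0.0519). With replicate 1 left out of both epithelia, an alternative added after the data were seen, the differences were -4.02, -4.99, -3.17 and -1.21 in the same order, all past the threshold.

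In the wild type, GE minus LE was -0.90 for Ltf (SE 0.61, 95% interval -2.32 to 0.52, limma adjusted p = 0.18) and -1.75 for C3 (SE 1.02, 95% interval -4.15 to 0.64, limma adjusted p = 0.129). The LE and GE libraries overlapped for both genes. Of the 6414 genes on the wild-type list 97.0% passed this test, and Ltf and C3 were both outside that share. Both passed with edgeR, at -1.58 for Ltf and -2.61 for C3, and with DESeq2, at -2.05 and -2.91. The change in this difference from wild type to E-OEX was -2.60 for Ltf (SE 1.03, 95% interval -4.83 to -0.37, limma adjusted p = 0.138) and -1.25 for C3 (SE 1.41, 95% interval -4.29 to 1.79, limma adjusted p = 0.664). The C3 value ran from -2.25 without wild-type LE replicate 2 to -0.15 without wild-type LE replicate 1. Neither passed, where 10.7% of 2933 genes did. The Ltf value passed without wild-type LE replicate 1 (-3.37, adjusted p = 0.0231) and without E-OEX GE replicate 1 (-3.49, adjusted p = 0.0262).

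The E-OEX libraries of replicate 1 stood apart for these genes. All 4 were highest in replicate 1 of E-OEX in the luminal and again in the glandular libraries, as were 568 of 3900 E-OEX genes (14.6%). In E-OEX GE, replicate 1 also held more of the luminal marker Wnt7a, at 48.1 against 1.15 and 6.56 in the other libraries. It held less of the luminal markers Calb1 (152 against 669 and 454) and Lpar3 (229 against 446 and 378). The sum over these 3 luminal markers was 430 in replicate 1, 1116 in replicate 2 and 839 in replicate 3, so the markers did not move together. In E-OEX LE, replicate 1 had the highest sum of 4 glandular markers, 1008 against 200 and 108, with Foxa2, a transcription factor of uterine glands, at 426 against 41.8 and 52.9. Stromal markers followed the same order there, at 2728, 1213 and 498 over 8 genes. The part of these cells in the values of replicate 1 was not tested.

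**Figure D3:**
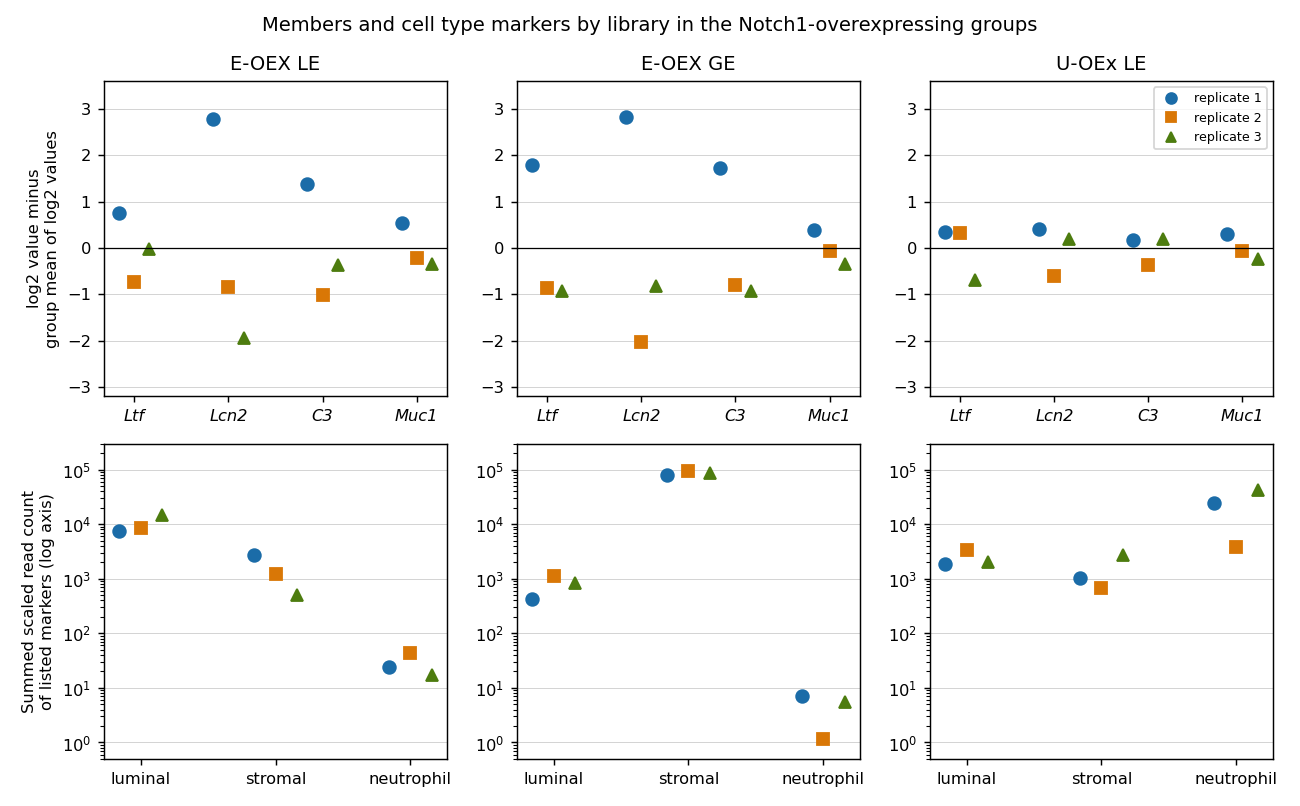
The upper panels give the log2 value of each member in each library minus the mean of the group's log2 values, for E-OEX LE, E-OEX GE and U-OEx LE. The lower panels give, on a log axis, the summed scaled read count of the luminal, stromal and neutrophil markers listed in each table (10 neutrophil markers in U-OEx, 2 in E-OEX). Replicate 1 is highest for every member in both E-OEX epithelia, and the neutrophil sum in U-OEx LE runs from 3856 to 41608.

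Neutrophil markers differed widely between the U-OEx LE libraries. The sum over 10 markers was 24052 in replicate 1, 3856 in replicate 2 and 41608 in replicate 3. The calprotectin subunits S100a8 and S100a9 and the receptor Csf3r made up most of it, and Csf3r alone was 6327, 2041 and 11256. Camp and Ngp, which like Ltf and Lcn2 encode granule proteins, were low, at 10.1, 1.78 and 3.84 for Camp and 79.0, 0 and 73.0 for Ngp. Mmp8 and Mmp9, granule proteinases of the same cells, were higher, at 222, 15.1 and 429 for Mmp8 and 1785, 498 and 3168 for Mmp9, and were lowest in replicate 2. Ltf was lowest in replicate 3, where the neutrophil sum was highest, and stood at 126388 in replicate 2, where that sum was lowest. Lcn2 and C3 were lowest in replicate 2, at 48947 and 26229. The wild-type tables list 3 of the markers, whose LE sums ran from 19.5 to 39.4, with Mmp9 and Retnlg at 0 in all 3 wild-type LE libraries. In U-OEx LE, Mmp9 was at least 565-fold and Retnlg at least 164-fold higher, counting wild type at 3 reads per library, while Ly6g stood at -0.07 on the log2 scale (SE 0.99, limma adjusted p = 0.955). In E-OEX LE the 2 listed markers, Ly6g and Mpo, summed to between 17.3 and 43.6, all from Ly6g, since Mpo was at 0. S100a8, S100a9 and Csf3r were not listed for E-OEX, so this sum cannot be compared with that of U-OEx LE. The part of neutrophil RNA in the U-OEx values was not tested.

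The libraries labelled luminal carried the 3 luminal markers used here, but at different levels. Their sum was 29001 to 54261 in wild-type LE, 7604 to 14417 in E-OEX LE and 1873 to 3371 in U-OEx LE, against 389 to 833 in wild-type GE and 430 to 1116 in E-OEX GE. Wnt7a, at 1343.5, 2811 and 1578, made up most of the U-OEx LE sum. Calb1 in U-OEx LE, at 254, 252 and 209, lay within its wild-type GE range of 190 to 552. Lpar3 there, at 276, 307 and 215, lay close to its wild-type GE range of 195 to 273. From wild-type to U-OEx LE, Calb1 fell by 7.03 on the log2 scale (SE 0.37, limma adjusted p = 8.11e-06), Lpar3 by 4.70 and Wnt7a by 1.07. Of 5 listed glandular markers tested there, Foxa2 (5.66), Lif (3.91) and Cxcl15 (3.80) rose, and Spink1, which was at 0 in every U-OEx LE library, passed as lower from a rescaled mean of 8.20. Over the 6 or 8 stromal markers listed, the GE libraries held sums of 33746 to 99388 and the LE libraries of the 3 genotypes held 363 to 7656. The members' lower values in E-OEX GE stand beside that difference in stromal RNA, and its part was not tested.

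Other genes known to respond to estrogen in this tissue moved in both directions in U-OEx LE. Of 20 such genes, 12 were tested against wild-type LE, several of them within the Sprr2 and Padi gene families. Of the 12, 7 rose and 2 fell, where 29.1% of all genes tested passed as higher and 27.8% as lower. The median was 2.20 against 0.09 over all genes tested. Padi1, a peptidylarginine deiminase, rose by 6.37 (SE 0.23, limma adjusted p = 2.6e-06), from a rescaled mean of 63.4 to 5290. The wild-type GE libraries held 3641, 2127 and 4698 of Padi1 as deposited. The epithelial small proline-rich genes Sprr2b and Sprr2a3 rose by 7.85 and 3.48, and Sprr2g fell by 3.32, with the reservation that Sprr2 genes are near-identical copies whose reads may be assigned among each other. Cfb, complement factor B, which forms the alternative pathway convertase with C3, rose by 3.35. Fxyd4, a regulator of the sodium pump, fell by 3.86. Of the same 12 genes, 4 were higher and 8 lower in wild-type GE than in wild-type LE, in a list selected for that difference, of which 97.0% passed. In E-OEX against wild-type LE, 7 of the 20 were tested and 1 passed, where 10.7% of all genes tested did. It was Sprr2g, which fell by 3.59, and the median was 0.22 against -0.09 over all genes. Cfb there stood at 1.96 (adjusted p = 0.0756). In E-OEX against wild-type GE, 3 of 6 tested rose, Cfb by 2.74, Fxyd4 by 2.21 and the early-response factor Egr1 by 1.69, where 9.72% of all genes tested passed as higher. The median there was 1.53, or 1.12 with genes at the floor of 3 reads set to their bound, against 0.05 over all genes. U-OEx against E-OEX LE had 11 tested, with Ramp3 (3.30) and Fos (1.66) higher and Clca1 lower (-2.16). The median there was 1.02 against 0.06, and 15.0% of all genes tested passed.

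Genes known to be induced by progesterone in the epithelium were lower or not called. In U-OEx LE, 4 of 7 tested fell against wild type and the other 3 did not pass, where 27.8% of all genes tested passed as lower. Lrp2, the endocytic receptor megalin, fell by 10.88, Hdc, which makes histamine, by 4.93, the transcription factor Gata2 by 2.46 and Acod1, which makes itaconate, by 2.25. The median was -2.25 against 0.09 over all genes. The same 4 genes were lower in wild-type GE than in wild-type LE, and the other 3 of the 7 were higher. That list was selected for this difference, and 97.0% of it passed. Calca (0, 10.2 and 1.12) and Il13ra2 (0, 3.07 and 2.24) were near 0 in the wild-type LE libraries, so they could hardly fall. In E-OEX LE the median over 4 tested genes was -2.95, and 0 passed by limma or edgeR, against 3 at an unadjusted p under 0.05 and 1 by DESeq2. Acod1 there stood at -4.50 (SE 1.49, limma adjusted p = 0.085). In E-OEX GE, 3 of 5 fell, Calca by 3.94, Hdc by 2.24 and Acod1 by 2.04, where 13.8% of all genes tested passed as lower.

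**Figure D4:**
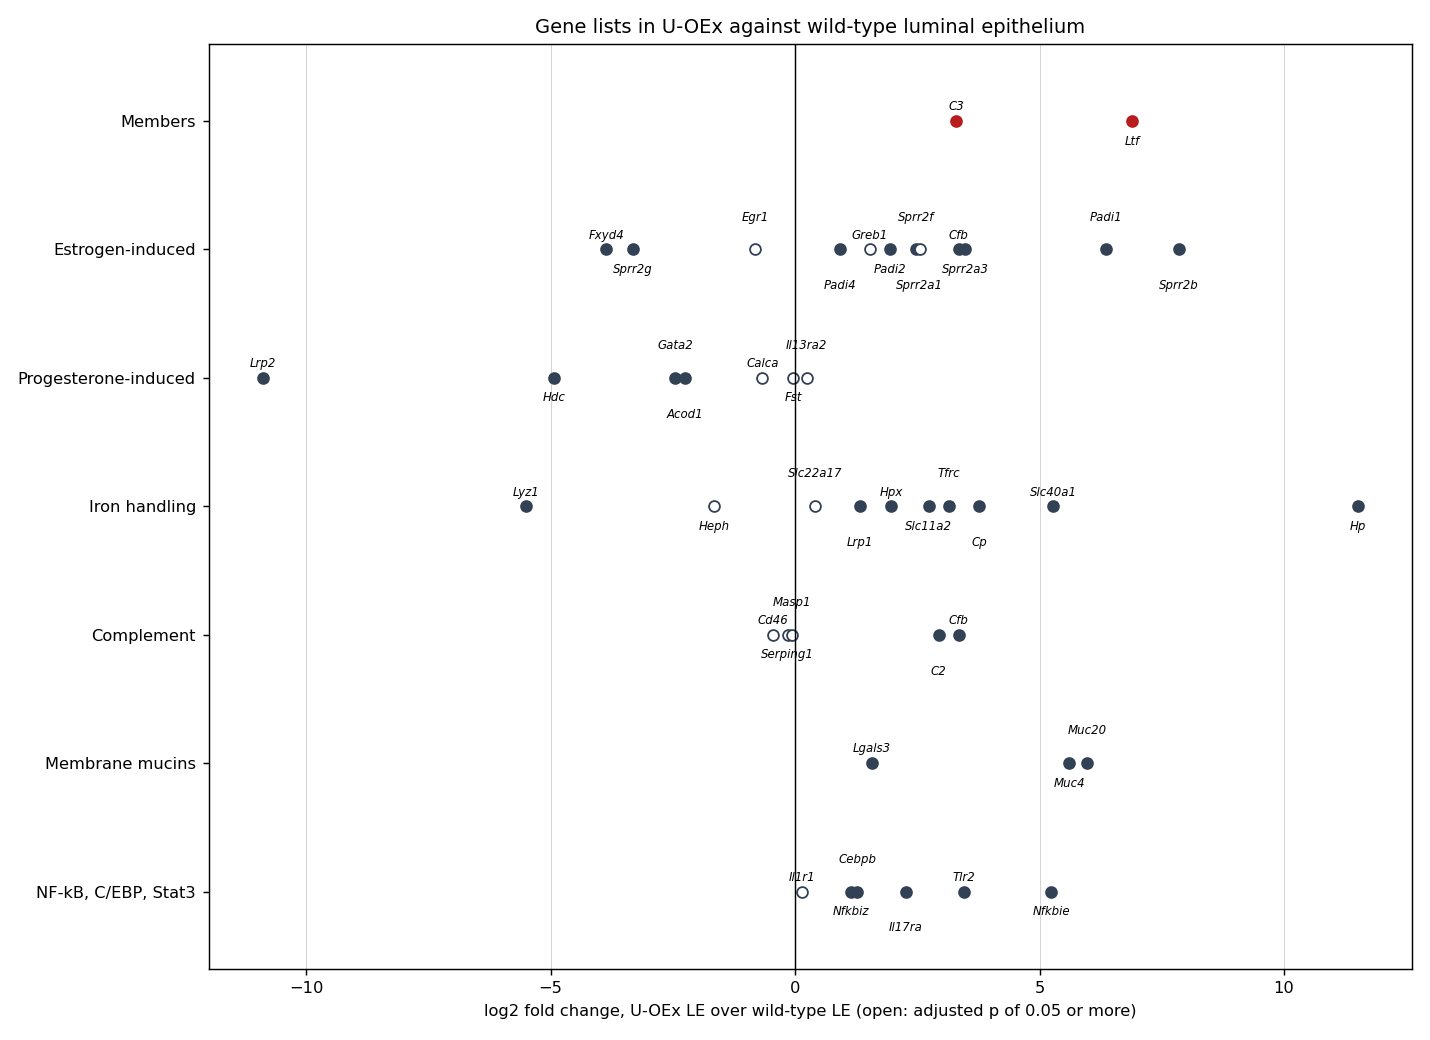
Log2 fold change in U-OEx LE over wild-type LE for Ltf and C3 and for every tested gene of 6 related lists, filled where the limma adjusted p was under 0.05. The plotted value of Hp is the fitted one and is no bound, since wild-type LE was at or under 3 reads for Hp, and all progesterone-induced genes past the threshold lie to the left of 0.

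Esr1, the estrogen receptor, held 4010, 2748 and 4253 in wild-type LE and 2589, 2613 and 1834 in U-OEx LE. The U-OEx libraries were all lower, and the difference of -0.66 did not pass the test (SE 0.27, limma adjusted p = 0.0686). Pgr, the progesterone receptor, held 4694, 1828 and 2971 in wild-type LE and 699, 842 and 770 in U-OEx LE, with no overlap. The 2 groups failed to overlap for 63.8% of all genes tested. Pgr fell by 1.96 (SE 0.37, limma adjusted p = 0.00267). Nrip1, a co-repressor of nuclear receptors, fell by 1.25. Notch1 itself was listed for U-OEx only, at 2913, 3524 and 2789, so overexpression could not be checked against wild type.

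A list of genes for iron handling and related secreted defence proteins had 10 members tested in U-OEx against wild-type LE. Of these, 7 rose and 1 fell, where 29.1% of all genes tested passed as higher, and the median was 2.35 against 0.09 over all genes. Slc40a1, the iron exporter ferroportin, rose by 5.28, Cp, the ferroxidase ceruloplasmin, by 3.77, Tfrc, the transferrin receptor, by 3.14 and Slc11a2, an iron importer, by 2.73. Hp, the haemoglobin-binding haptoglobin, was at least 2120-fold higher in U-OEx LE, with wild-type LE at or under 3 reads per library. The list's 1 fall was that of Lyz1, by 5.51, which encodes a lysozyme, an antibacterial enzyme that does not handle iron. In wild-type GE against wild-type LE, 9 of the same 10 were higher and 1 was lower. The median there was 3.07 against 1.36 over all genes, in a list selected for that difference, with 58.3% of its calls higher. In E-OEX LE, 2 of 4 rose, Slc40a1 by 4.51 (SE 0.55, limma adjusted p = 0.00169) and Hp at least 229-fold, where 5.12% of all genes tested passed as higher. In E-OEX GE, Hp rose by 1.39 and Heph, a membrane ferroxidase, fell by 1.65.

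Complement genes other than C3 were thinly listed. In U-OEx LE, 5 of 25 were tested against wild type, and C2 (2.94, SE 0.22, limma adjusted p = 2.81e-05) and Cfb rose. The median was -0.06, and 29.1% of all genes tested passed as higher. Both C2 and Cfb encode proteases that cleave C3 once activated. In E-OEX GE, C2 rose by 2.81 and Cfb by 2.74, the latter from a mean of 2.70 to 22.3, while C3 stood at -0.26 there. In E-OEX LE, C2 stood at 0.95 (adjusted p = 0.243). Against E-OEX LE, U-OEx LE was higher in C2 (1.70) and in Cfi, which degrades active C3 (1.93), of 7 tested. Over all genes tested there, 6.97% passed as higher.

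Muc20 and Muc4, the 2 other membrane mucins tested against wild type, were higher in the LE of both Notch1-overexpressing groups. Muc20 rose by 5.98 and Muc4 by 5.61 in U-OEx LE, and by 4.09 and 3.24 in E-OEX LE, against the same wild-type LE libraries. Lgals3, a galectin that binds mucins, rose by 1.57 in U-OEx LE. Of 11 genes in that list, 3 were tested in each comparison with wild type, 3 rose in U-OEx LE and 2 in E-OEX LE. The shares of all genes tested that passed as higher were 29.1% in U-OEx LE and 5.12% in E-OEX LE. Against E-OEX LE, Muc4 was 2.08 higher in U-OEx, where Muc1 stood at 0.36. In E-OEX GE, Muc20 stood at -1.03 (adjusted p = 0.258) and Muc4 at 0.04 (adjusted p = 0.971).

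The NF-kappaB, C/EBP and Stat3 pathways are known to switch on Lcn2 in other epithelia. Of 20 genes listed for them, 6 were tested in U-OEx against wild-type LE and 5 rose. The median of the 6 was 1.77 against 0.09 over all genes, 29.1% of which passed as higher. The 5 were Nfkbie (5.24) and Nfkbiz (1.15), which encode IkappaB-family proteins, the receptors Tlr2 (3.46) and Il17ra (2.27), and the transcription factor Cebpb (1.27). None of the 5 encodes an NF-kappaB subunit or Stat3, and the activity of these pathways was not tested. In E-OEX LE, 0 of the 2 tested passed by limma, edgeR or DESeq2, and 0 had an unadjusted limma p under 0.05. Cebpb stood there at -0.71 (limma adjusted p = 0.418). Cebpb rose in E-OEX GE by 1.19. U-OEx LE exceeded E-OEX LE in Bcl3 (2.03, limma adjusted p = 0.0481) and Cebpb (1.70), of 4 tested, where 6.97% of all genes tested passed as higher. The gene lists overlap in Cfb, which counts in both the estrogen and the complement list.

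The genes whose log2 levels tracked each member most closely were ranked by Pearson correlation, and Steap2 was among the nearest of both Ltf and Lcn2. Over 15 libraries and 2669 genes, Ltf was nearest to Acp5, a secreted acid phosphatase (Pearson r = 0.969), the metalloreductase Steap2 (0.960) and S100a14 (0.958). C3 was nearest to Sftpd, the collectin surfactant protein D (0.975), Hsd17b2, an enzyme that inactivates estradiol (0.971), and Syne4 (0.968). Over the 9 E-OEX and U-OEx libraries and 4459 genes, Lcn2 was nearest to the antisense gene Tnfsf13os (0.996), Steap2 (0.995) and the nucleotide receptor P2ry6 (0.995). As Tnfsf13os is an antisense gene and strand-specific counting is not stated, its reads cannot be told apart from those of its partner. Muc1 was nearest to Stra6, which takes up retinol (0.997), Ntf5 (0.996) and the kallikrein Klk10 (0.993). Among the members, r was 0.803 between Ltf and C3 over 15 libraries, and over 9 libraries it ran from 0.947 (Lcn2 and Muc1) to 0.985 (Lcn2 and C3). The libraries share their group, scale and table, so these values are a description of how the groups line up.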

How the data were processed

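Per the labels' protocols, total RNA was isolated with an RNeasy kit and libraries were made with the NEBNext Ultra RNA kit. The authors' deposited values are a signal: read counts divided by 1 factor per library, read from the values themselves, since dividing by the smallest step gave whole reads within 0.01 for all values. The build is GRCm38 (mm10), per the submitters' processing notes. The aligner, counter, strand setting and scaling are not given in the sources used here. Gene names are those in the files.

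Groups and replicate numbers came from the sample titles. The tests were limma 3.58.1 (R 4.3.3) with a mean-variance trend on log2(value + 1), for genes with a mean of at least 1, with Benjamini-Hochberg adjustment over all genes of each of 7 comparisons and a threshold of 0.05. Fold changes on that scale understate low genes. Comparisons between genotypes used recovered reads of the shared genes, rescaled with TMM, because the tables of the genotypes appear to have been scaled separately. Those within a genotype, and the interaction, used deposited values. Alternatives were edgeR 4.0.16, DESeq2 1.42.0, other scalings, pseudocounts and filters, a replicate block and leaving out each library. A group with at most 3 reads in each library was held to be at the floor, and a fold against it is a bound. The script was tested on simulated reads with the same dispersion for every gene and no preselected gene list. That test does not cover the wider spread between libraries seen here.

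The text names the 4 members, up to 6 genes past the threshold by size from each list and comparison plus those needed for a range, and for each member the 3 genes with the highest correlation. The members and lists were chosen with earlier results of these data known. Some values outside the rule (marker genes, receptors, and members of a list that did not pass) are named as context after they were seen. A few genes of the original lists, among them 1 luminal marker, are not reported here and enter no count or sum of a list.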

Additional observations from a re-analysis of the deposited data

Results flagged for a closer look

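For 6 genes of the related lists, the E-OEX minus wild-type difference in GE differed from that in LE by limma's interaction test, at an adjusted p under 0.05. On the log2 scale the GE minus LE value of that difference was 4.97 for Fxyd4 (SE 1.12, limma adjusted p = 0.0144), 3.58 for the early-response factor Egr1 (SE 0.82, adjusted p = 0.0149) and 2.14 for C2 (SE 0.59, adjusted p = 0.0357). It was -3.98 for Slc40a1 (SE 0.60, adjusted p = 0.00163), -4.83 for Muc20 (SE 0.95, adjusted p = 0.00663) and -5.17 for Hp (SE 1.44, adjusted p = 0.0371). Hp was at or under 3 reads in the wild-type LE libraries, so its fitted value depends on the pseudocount and is no bound. Slc40a1 rose by 4.51 in E-OEX LE and stood at 0.24 in E-OEX GE. Muc20 rose by 4.09 in LE and stood at -1.03 in GE. Fxyd4 stood at -2.47 in LE (adjusted p = 0.107) and rose by 2.21 in GE. Over all 2933 genes tested, 10.7% passed the interaction test. Tested were 7 genes of the estrogen list, 5 of the progesterone list and 4 of the iron list. The complement and mucin lists had 3 each and the NF-kappaB list 2, with Cfb in both the estrogen and complement lists. Every gene tested was on both the wild-type and the E-OEX list, each selected for a difference between LE and GE.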

How the results depend on the processing

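Of 302 alternatives for the members, 258 kept the direction and the side of the threshold, 19 ended a call, 19 made one and 6 turned a sign. Ltf and C3 in U-OEx against wild-type LE held under all of theirs. For other named list genes 216 of 1980 alternatives ended the call and 0 turned a sign. Without the low filter 105 genes passed in E-OEX against wild-type LE (277 with it) and 286 in U-OEx against E-OEX LE (642), and Ltf in the first stayed at 4.58 (adjusted p = 0.0518), Ltf in the second at 2.03 (0.0671) and Lcn2 at 3.63 (0.112). With a pseudocount of 0.1, Lcn2 was 3.63 (0.0551). With DESeq2 453 genes passed in E-OEX against wild-type LE and 501 in the interaction (315). In 1 fit over all groups, which tests only the 2819 genes listed in every table, the counts were 616, 285 in E-OEX against wild-type GE (670), 1274 in U-OEx against wild-type LE (3384), 2486 in wild-type GE against LE (6223) and 2264 in E-OEX GE against LE (4491). That fit gave -1.62 for Ltf and -2.47 for C3 in wild-type GE against LE. edgeR gave -1.58 and -2.61 there and DESeq2 -2.05 and -2.91. In E-OEX against wild-type GE, Ltf was 2.36 with edgeR, 2.40 with DESeq2 and 2.15 on the deposited scale, and C3 turned to 0.16, 0.22 and 0.20. Lcn2 in U-OEx against E-OEX LE was 2.47 with edgeR. The cause of these changes was not tested.

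The share of calls that were higher moved from 41.3% to 71.6% on the deposited scale in E-OEX against wild-type GE, from 67.2% to 46.2% with quantile normalization in E-OEX GE against LE, and in the interaction from 54.3% to 42.9% with it and to 66.9% with DESeq2. Leaving out 1 library moved it to 66.4% in the interaction (without wild-type LE replicate 1), from 46.4% to 27.8% in U-OEx against E-OEX LE (without U-OEx LE replicate 3) and from 48.0% to 69.6% in E-OEX against wild-type LE (without wild-type LE replicate 3).

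Over all genes, deviations of same-numbered libraries were weakly correlated at most (-0.273 to 0.194), and not every library matched its own number best. With 3 libraries per group this cannot decide whether same-numbered libraries came from 1 animal, so pairing stays unknown. For E-OEX GE against LE, a replicate block moved the SE from 0.73 to 0.43 for Ltf and from 1.45 to 0.5 for Lcn2. It moved from 0.82 to 0.37 for C3 and from 0.36 to 0.34 for Muc1. With a replicate block, Ltf in E-OEX against wild-type GE was 1.69 (adjusted p = 0.0127), C3 in U-OEx against E-OEX LE 1.74 (0.0342), C3 in wild-type GE against LE -1.75 (0.0372) and the Ltf interaction -2.60 (0.0298), all past the threshold, no other member's call changed, and every count of calls stayed within 1.5 times.

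Leaving out 1 library at a time gave 56 (without wild-type LE replicate 3) to 322 genes in E-OEX against wild-type LE, 362 (without wild-type GE replicate 1) to 728 in GE, 60 (without U-OEx LE replicate 1) to 904 in U-OEx against E-OEX LE and 179 (without wild-type GE replicate 3) to 449 in the interaction. In E-OEX against wild-type GE it gave 0.73 to 2.23 for Ltf and -1.19 to 0.28 for C3. In U-OEx against E-OEX LE it gave 1.71 to 2.40 for Ltf, 2.68 to 4.94 for Lcn2 and 1.28 to 2.35 for C3. In wild-type GE against LE it gave -1.40 to -0.13 for Ltf and -2.85 to -0.75 for C3. In E-OEX GE against LE it gave -6.38 to -3.59 for Lcn2, -3.86 to -2.31 for C3 and -1.49 to -1.01 for Muc1, and the Ltf interaction ran from -3.49 to -2.10. Reads in listed genes bound the precision, and the full depth of the wild-type and E-OEX libraries is not known.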
